A study of Mus musculus with 21 samples.

Results

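Aminoacyl-tRNA synthetases are the enzymes that join each amino acid to its tRNAs and so supply the ribosome with charged tRNA. In mammals most of them come in a pair: a cytosolic enzyme and a separate nuclear-encoded enzyme, marked by the suffix 2 in mouse gene symbols, that works in mitochondria. Gars and Kars each encode both forms, and Qars encodes the cytosolic enzyme for glutamine. Many cytosolic synthetase genes are known targets of ATF4, the transcription factor that eIF2 alpha kinases turn on when amino acids run short or protein folding is stressed, and several cytosolic synthetases sit together in the multisynthetase complex. The genes described here are the 36 synthetase genes that were given by symbol, 20 for cytosolic and 16 for mitochondrial enzymes, out of 51467 mouse genes in the deposited count tables. All 36 were found by their Ensembl identifiers, and all 36 passed the filter on low counts, as did 14518 genes in all.

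The cultures were mouse embryonic stem cells (ESCs) of the V6.5 line, grown with serum, LIF and 2i (PD0325901 and CHIR99021). They comprised 3 wild-type cultures and 4 Ddx6 knockout (KO) cultures, the latter being 2 cultures of clone 1 and 2 of clone 2, both made from the same parent line with CRISPR-Cas9. DDX6 is an RNA helicase that acts in translational repression and mRNA decay. Each culture was labelled with 500 uM 4-thiouridine (4sU), a uridine analog that enters new transcripts, for 30 min, and its RNA gave a 4sU library (nascent RNA) and a total RNA library. All groups therefore shared the medium and the labelling. Each KO line is 1 clone, and the labels do not say whether the cultures of a line were grown apart in time, so p-values measure the spread between these cultures.

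The 4sU libraries held 2441639 to 3570192 counts and the total RNA libraries 5724179 to 7369651. Levels below are counts per 1000000 counts of the library (CPM), scaled by the trimmed mean of M values (TMM) and called normalised CPM, and 3 counts correspond to at most 1.23 CPM before scaling in a 4sU library and 0.524 in a total RNA library. In total RNA, Ddx6 lay between 334 and 392 normalised CPM in the 3 wild-type cultures and between 21.5 and 67.8 in the 4 KO cultures, so the targeted gene follows the labels. All 9 listed ESC markers were at 3 normalised CPM or more in every culture. The 7 listed markers of fibroblast feeders summed to 3.34 to 5.74 in wild type and 10.8 to 12.6 in KO cultures, with Postn and Dcn at 0 in all total RNA libraries, and the part of such cells in the results below was not tested. The 5 listed markers of primitive endoderm summed to 8.04 to 13.2 in wild type and 10.03 to 15.4 in KO cultures, and the 6 of primed or early lineage cells to 45.8 to 49.6 and 28.3 to 30.6. In bulk RNA, fewer cells of a type and less RNA per cell cannot be told apart.

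In wild-type ESCs the cytosolic enzymes were far more abundant in total RNA than the mitochondrial ones, and the ranges did not overlap once divided by exon length. Without that division they overlapped, since Hars had 155 and Iars2 169 normalised CPM. Per kilobase of exon, the cytosolic members ranged from 58.4 normalised CPM for Wars, the tryptophan enzyme, to 368 for Gars, the glycine enzyme, with a median of 133. The mitochondrial members ranged from 1.76 for Wars2 to 25.4 for Iars2, the mitochondrial isoleucine enzyme, with a median of 13.4, against 8.17 for all genes tested. The median cytosolic member stood at the 96.4th percentile of wild-type total RNA levels and the median mitochondrial member at the 61.6th.

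**Figure D1:**
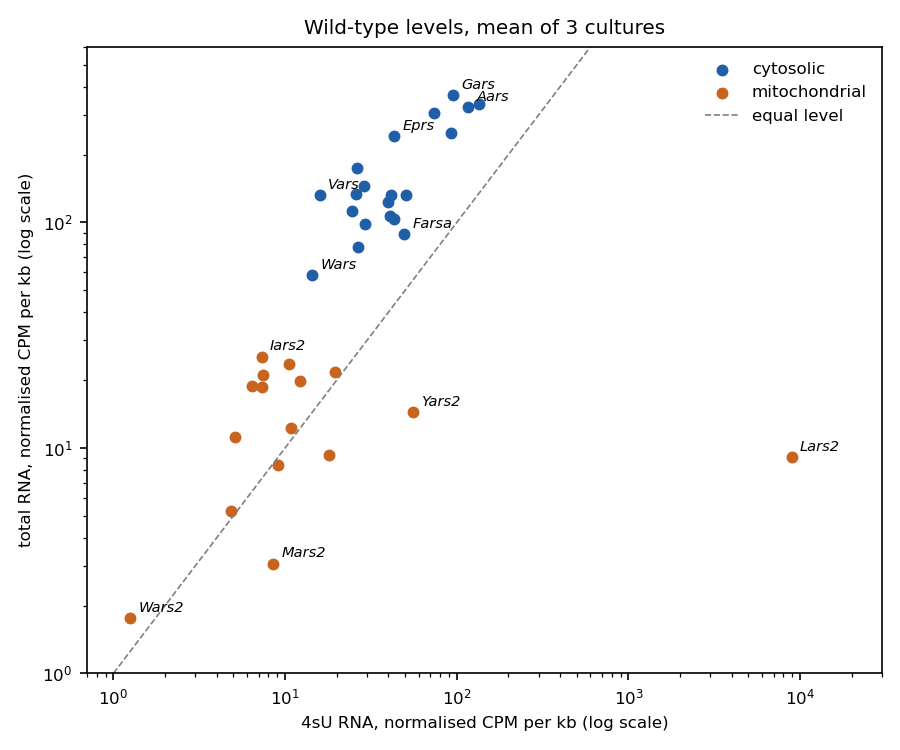
Wild-type level of each of the 36 synthetase genes in 4sU RNA (x axis) and total RNA (y axis), in normalised CPM per kilobase on log scales. Each point is 1 gene and the mean of 3 cultures, and the dashed line marks equal levels. Cytosolic genes lie above 58.3 on the y axis and mitochondrial genes below 25.5, and Lars2 lies alone at the far right.

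The ratio of total to 4sU RNA is the study's measure of relative mRNA stability, since the 4sU library reports recent synthesis and the total library what has accumulated. On the log2 scale it was 0.07 for the median gene in wild type. Every cytosolic member was above that, from 0.84 ± 0.01 (SD, n = 3) for Farsa, a subunit of the phenylalanine enzyme, to 3.03 ± 0.10 for Vars, the valine enzyme, with a median of 1.71. Vars stood at percentile 99.95 of all genes tested, Lars, the leucine enzyme, at 99.88, Eprs at 99.5 and Mars at 99.2. The mitochondrial members were spread from -1.92 ± 0.13 for Yars2 to 1.78 ± 0.07 for Iars2 with Lars2 left aside, and their median with Lars2 was 0.31. The ratio is relative to the other genes in the same libraries and is no half-life.

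Lars2, the mitochondrial leucine enzyme, did not behave in the 4sU libraries like any other member. The gene spans chr9:123366927-123462664 of mm10 on the plus strand, with 3894 bases of exon. It held the most counts of all genes in 4sU RNA, between 86838 and 112284 per library, and 2.93% to 3.76% of all counts. In total RNA of the same 7 cultures it held 179 to 273 counts, or 29.9 to 38.0 CPM before scaling, in the range of the other mitochondrial enzymes. Its log2 ratio in wild type, total over 4sU RNA, was -9.92 ± 0.32 (SD, n = 3), and only 1 tested gene had a lower one.

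The 4sU libraries were sequenced in 2 runs, single-end first and paired-end later, and the share of Lars2 differed between them. It took 1.73% to 2.11% of the counts in the first run and 4.63% to 5.73% in the later run, and the quotient of the shares had a median of 2.71 over the 7 cultures. Among the other 32 members with at least 20 counts in every library of the first run, that quotient lay between 0.734 and 1.07, with 0.881 as the median of 8198 such genes, of which 155 were above 2. Thus Lars2 was the only one of these members whose 4sU level moved by more than 2 times with the run.

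Some loci that are no synthetase genes, chosen after their values were seen, showed the same contrast between assays. Mir6236 had 6810 to 8850 CPM in 4sU libraries and 13.4 to 92.0 in total RNA libraries, and Gm15564 had 4592 to 6135 and 4.34 to 10.7. The proportion of their counts to those of Lars2 moved with the run. For Mir6236 it was 0.319 to 0.362 in the first run and 0.175 to 0.192 in the later one, and for Gm15564 0.208 to 0.260 and 0.120 to 0.134. Their own shares rose between the runs by a median of 1.40 and 1.45 times, less than that of Lars2. Another such locus, Gm23935, had 5840 to 19679 CPM in 4sU libraries and 35.1 to 72.7 in total RNA libraries. Its share rose more than that of Lars2, by a median of 5.66 times. The share of AA474408, with 58.4 to 107 CPM in 4sU and 1.09 to 3.05 in total RNA libraries, fell, with a median quotient of 0.525. A search of the GENCODE M21 transcripts with the longest basic coding transcript of each member found that 72 bases of Lars2 match a Gm15564 transcript with 98.6% identity. The stretch lies at chr9:123462048-123462119, in the 3' UTR in the last of 21 exons. Whether the 4sU reads counted at Lars2 come from Lars2 transcripts was not tested, because the count tables do not place reads within a gene, so its 4sU level and its ratio are given here as values of the locus only.

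**Figure D2:**
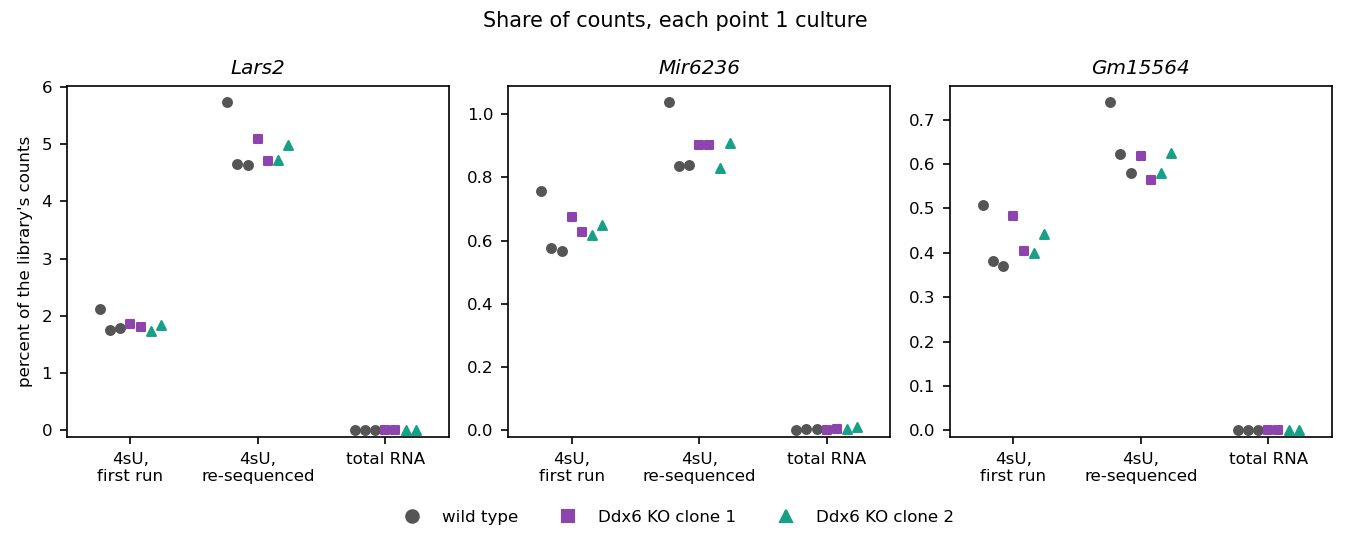
Share of the library's counts (y axis, percent) at Lars2, Mir6236 and Gm15564 in the first 4sU run, the re-sequenced 4sU run and total RNA (x axis). Each point is 1 culture, coloured by genotype and clone. Lars2 takes 1.73% to 2.11% of the first run and 4.63% to 5.73% of the later one, and all 3 loci lie near 0 in total RNA.

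The central comparison asks how loss of DDX6 changed synthesis, stability and level of these mRNAs. A gene passed when the edgeR quasi-likelihood test gave an adjusted p below 0.05 over the 14518 genes tested. In total RNA, 18 of the 20 cytosolic members were lower in KO cultures and none was higher, where 31.0% of all genes tested were called lower and 19.5% higher. Their median log2 fold change was -0.49, against -0.10 for all genes tested. Of the 16 mitochondrial members, 9 were lower and 3 higher, with a median of -0.23. With TMM within each assay 6 of the 16 were lower and 3 higher (median -0.14). Under library totals without TMM scaling 5 were lower and 3 higher (median -0.08). The medians of all genes tested were -0.0071 and 0.057 in these 2 settings, and 17 of the 20 cytosolic members were lower in each. The summed level of the cytosolic members was 11028 to 11137 normalised CPM in wild-type cultures and 8015 to 8266 in KO cultures, and that of the mitochondrial members without Lars2 was 738 to 757 and 650.1 to 679.6. These sums do not overlap between genotypes, and no test was made of them. No member passed with an absolute log2 fold change above 1, the further threshold of the study, which 10.1% of all genes passed in total RNA. That count was also 0 at an unadjusted p below 0.05 and in DESeq2 and limma-voom, since no fitted change of a member reached that size.

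**Figure D3:**
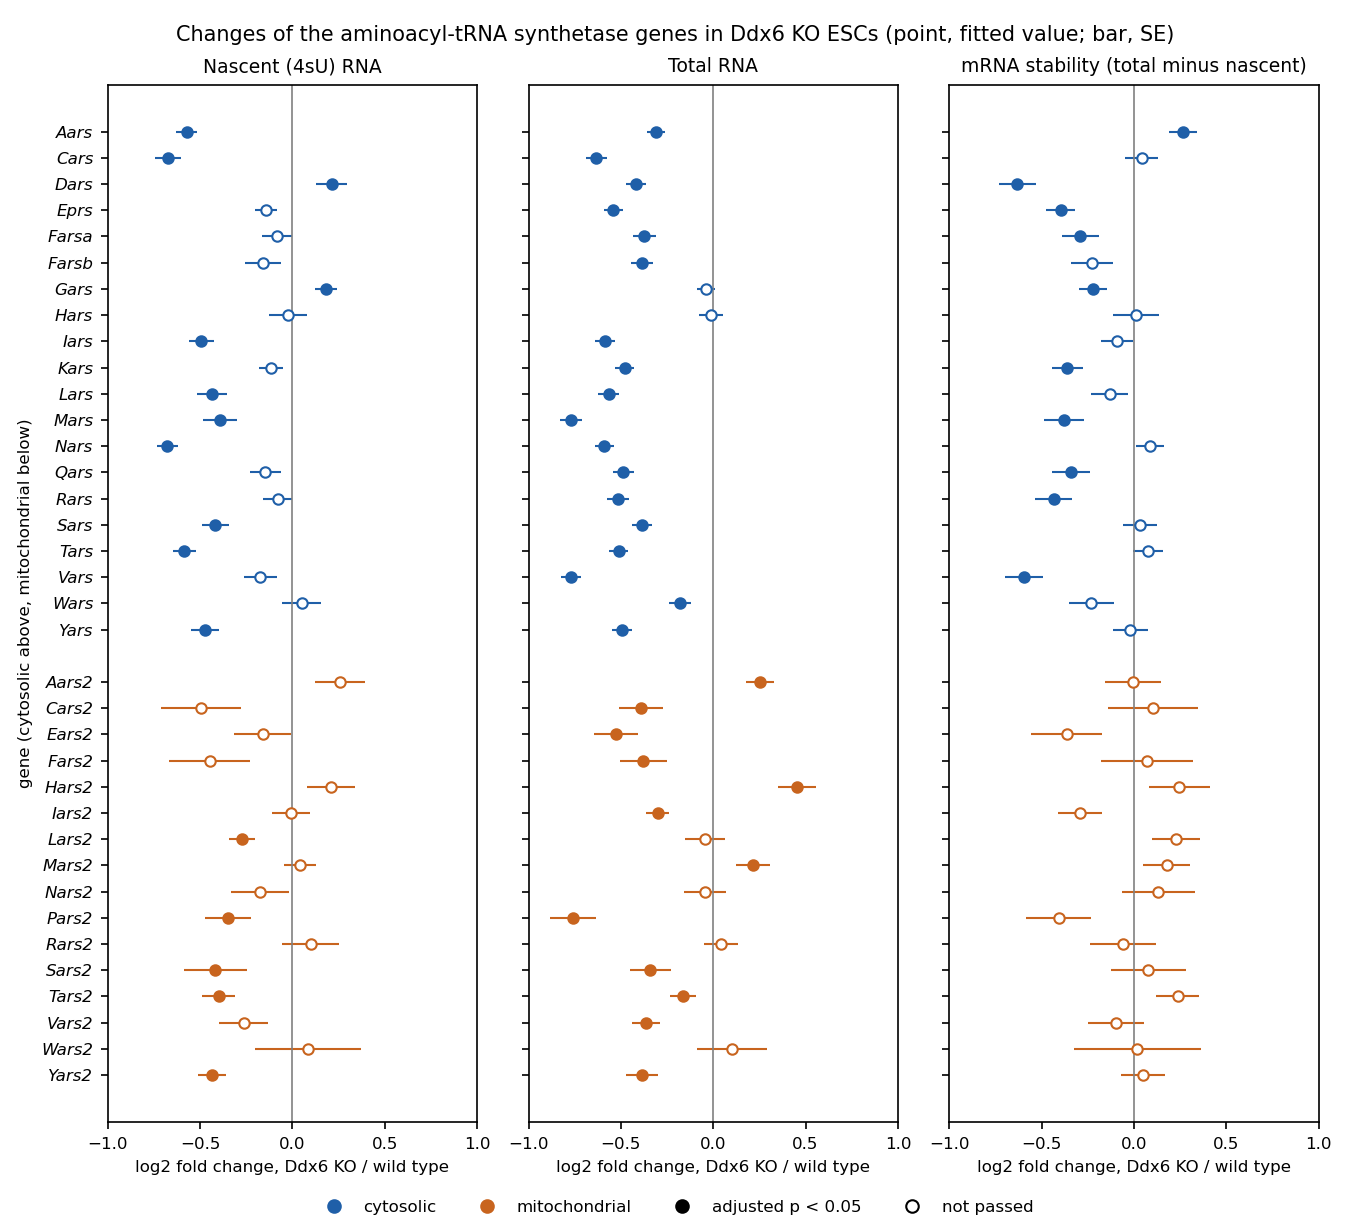
Fitted log2 fold change of Ddx6 KO over wild type (x axes) for each of the 36 genes (y axis) in nascent RNA, total RNA and their difference, mRNA stability. Points are fitted values over 7 cultures, bars are standard errors, and filled points passed at an adjusted p below 0.05. In the total RNA panel 18 of 20 cytosolic genes are filled and lie left of 0, and no mitochondrial gene is filled in the stability panel.

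Nascent RNA and stability, which share the 4sU libraries, split the cytosolic members. In nascent RNA 9 of 20 fell and 2 rose, where 21.0% of all genes tested were called lower and 20.6% higher. In stability 9 fell and 1 rose, where 8.58% of all genes tested were called lower and 3.79% higher, but only 5 fell with TMM within each assay and 6 with DESeq2. Of the 18 that were lower in total RNA, 8 were lower in nascent RNA without a call of lower stability, 7 were lower in stability without a fall in nascent RNA, 1 was lower in both, and 2 passed in neither. A call in one measure and not in another does not show that the changes differ in size. No member passed the fold threshold in nascent RNA or stability, which 10.9% and 1.08% of all genes did.

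The 9 members whose nascent RNA fell were Aars, Cars, Iars, Lars, Mars, Nars, Sars, Tars and Yars, and all 9 are among the 12 cytosolic members listed here as known ATF4 targets. The list was chosen with earlier results of these data known, so its match with the calls is a description only and was not tested. Of the other 3 of that list, Gars rose, and Eprs (-0.14, adjusted p = 0.0558) and Wars (0.05, adjusted p = 0.739) did not pass. The median log2 fold change in nascent RNA was -0.45 for the 12 listed targets and -0.10 for the 8 other cytosolic members, of which none fell, Dars rose and 7 did not pass. The fitted value was below 0 for 7 of these 8. For Kars (-0.12, adjusted p = 0.142) every KO culture lay below every wild-type culture in 4sU RNA, as in 21.2% of all genes tested. Under library totals without TMM scaling, where the median of all genes tested was 0.21 in place of 0.00094 in nascent RNA, 8 of the 12 fell and 2 rose, and 1 of the 8 others rose.

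Because C/EBP-ATF response elements are the sites through which ATF4 acts, the promoter windows of RefSeq (build GRCm38.p6, 250 bases before to 50 after the start) were searched for TGATGNAA on both strands. Windows were matched for 13 cytosolic and 14 mitochondrial members. Cars, Hars, Lars, Nars, Rars, Vars, Wars, Hars2 and Pars2 had no window and were not searched. The motif was present in 5 of the 13 and in 0 of the 14, and in 4.51% of the 27025 genes of the table. The 5 were Aars, Gars, Iars, Tars and Yars, all on the ATF4 list, of which 8 had a window. The matches before the start site of 3 of them are shown, with the motif in capitals as it reads along the gene, which is its reverse complement, since they belong to 2 listed targets that fell in nascent RNA and to the 1 that rose.
Aars: cttgagcaTTGCATCAgccgagcc
Gars: ctgcgctaTTTCATCAtgcaccgg
Tars: gagtcccgTTGCATCAgctggtt
They lie at chr8:111033722-111033745, chr6:55037963-55037986 and chr15:11399659-11399681. The first of them begins its motif 112 bases before the start, the second 30 and the third 15. In Iars and Yars the only matches began 7 and 3 bases after the start. Eprs, Mars and Sars, also on the ATF4 list, had a window without a match, and Mars and Sars fell in nascent RNA. A match is a description of the letters and no measurement of binding.

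Nars, the asparagine enzyme, had the largest fall in nascent RNA. Its 4sU level was 342, 355 and 373 normalised CPM in wild type and 229.5, 209, 222 and 229.8 in the KO cultures (clone 1, then clone 2, here and in all lists of 4 values). Its total RNA level was 879, 864 and 893 against 573, 561, 591 and 609. The groups were apart in both assays, with log2 fold changes of -0.68 ± 0.058 (SE, adjusted p = 5.23e-15) in nascent and -0.59 ± 0.050 (adjusted p = 3.25e-15) in total RNA. Stability did not pass (0.09, adjusted p = 0.527).

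Cars, Tars, Iars, Yars, Sars and Lars, the enzymes for cysteine, threonine, isoleucine, tyrosine, serine and leucine, had the same calls. Their nascent log2 fold changes ran from -0.67 ± 0.072 for Cars (adjusted p = 1.23e-11) to -0.42 ± 0.073 for Sars (adjusted p = 4.17e-06). For Cars the 4sU level was 140.3, 139.7 and 138 normalised CPM in wild type and 81.9, 85.4, 89.9 and 91.7 in KO, and the total RNA level 332, 334 and 333 against 206, 212, 222 and 218. For Tars (chr15:11383663-11399658) the 4sU level was 249, 240.5 and 246 against 152, 160, 179 and 162. In these 6 genes every KO culture lay below every wild-type culture in both assays, as in 14.4% of all genes tested.

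Aars, the alanine enzyme at chr8:111033902-111057664, was the single member with higher stability. Its 4sU level fell from 651, 640 and 723 to 421, 437, 476 and 469.7, a log2 fold change of -0.57 ± 0.055 (adjusted p = 2.71e-13). Total RNA fell less, from 1799.97, 1895 and 1899.7 to 1490, 1493, 1506 and 1525, or -0.31 ± 0.051 (adjusted p = 6.41e-07). The interaction was 0.26 ± 0.075 (adjusted p = 0.0127) and passed in 18 of 20 alternative settings, but not without wild-type culture 3 (adjusted p = 0.064). The exons of Aars share 1326 bases on the same strand with Exosc6, which encodes an exosome subunit, and reads there cannot be given to either gene.

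Mars, the methionine enzyme at chr10:127296221-127311786, was lower in all 3 measures. In total RNA its level was 394, 400 and 400 in wild type against 228, 237, 239 and 228, a log2 fold change of -0.77 ± 0.059 (adjusted p = 7.26e-17). Nascent RNA fell by 0.39 (SE 0.093, adjusted p = 0.000466), but the KO culture 1 of clone 2 with 72.1 lay above wild-type culture 3 with 68.3. Stability fell by 0.38 (SE 0.11, adjusted p = 0.0148), and did not pass without that KO culture (-0.28, adjusted p = 0.111) or without wild-type culture 3 (-0.29, adjusted p = 0.118). Its exons overlap Ddit3 by 135 bases on the opposite strand, and the counting was stranded.

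Of the 8 cytosolic members outside the ATF4 list, 7 were lower in total RNA and 6 in stability (Dars, Vars, Rars, Kars, Qars and Farsa), and of the 12 listed targets Eprs, Gars and Mars were lower in stability. With TMM within each assay 4 of the 8 and 1 of the 12 were lower in stability, and with DESeq2 4 and 2. The median log2 fold change in stability was -0.35 for the 8 and -0.06 for the 12, against -0.09 for all genes tested. In total RNA the medians were -0.45 for the 8 and -0.53 for the 12. Stability is total minus nascent, so its difference between these groups is not independent of that in nascent RNA. Farsa (adjusted p = 0.049) passed in 3 of 20 alternative settings and Gars in 5 of 20. The call of Farsa was lost on leaving out any 1 of 6 cultures (adjusted p up to 0.228), and that of Gars on leaving out any 1 of the 7 (up to 0.144).

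Dars, the aspartate enzyme at chr1:128363707-128417368, had the largest fall in stability, -0.63 ± 0.10 (adjusted p = 7.51e-06). The log2 ratio, total over 4sU RNA, was 2.27, 2.53 and 2.21 in wild type and 1.78, 1.71, 1.69 and 1.62 in KO. All KO cultures lay below all wild-type cultures. Its total RNA fell from 352, 356 and 365 to 268, 268, 272 and 261 normalised CPM (-0.42 ± 0.055, adjusted p = 4.09e-09), whereas its 4sU level was 72.1, 61.1 and 78.4 against 77.3, 81.6, 83.5 and 84.1. The rise in nascent RNA (0.21 ± 0.084, adjusted p = 0.0368) had overlapping groups and passed in 10 of 19 alternative settings, with an adjusted p of 0.388 without wild-type culture 2.

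Vars, the valine enzyme at chr17:35000987-35016322, had the smallest p in total RNA. Its total RNA level was 572, 518 and 546 in wild type and 315, 308, 323 and 333 in KO, a fold of 0.586 (log2 -0.77 ± 0.054, adjusted p = 2.15e-18). Its 4sU level of 66.0, 67.7 and 64.0 overlapped that of the KO cultures with 52.8, 56.7, 58.6 and 65.0, and the nascent change did not pass (-0.17, adjusted p = 0.113). Its log2 ratio went from 3.10, 2.92 and 3.08 to 2.56, 2.42, 2.45 and 2.34 (-0.60 ± 0.10, adjusted p = 3.54e-05). Vars thus had the highest ratio of the members in wild type, and Lars, at 2.60, had the highest in KO cultures.

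Eprs, the fused glutamate and proline enzyme, was 1153, 1171 and 1223 normalised CPM in wild-type total RNA and 825, 790.5, 819 and 816 in KO. Its changes were -0.54 ± 0.050 in total RNA (adjusted p = 4.78e-14) and -0.40 ± 0.079 in stability (adjusted p = 0.000278). Rars, the arginine enzyme, fell in stability by 0.44 (SE 0.10, adjusted p = 0.00184), Kars, the lysine enzyme, by 0.36 (SE 0.082, adjusted p = 0.00163) and Qars, the glutamine enzyme, by 0.34 (SE 0.10, adjusted p = 0.021). Kars and Rars passed in 19 of 20 alternative settings each, and Qars in 12, with an adjusted p of 0.221 without wild-type culture 2.

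**Figure D4:**
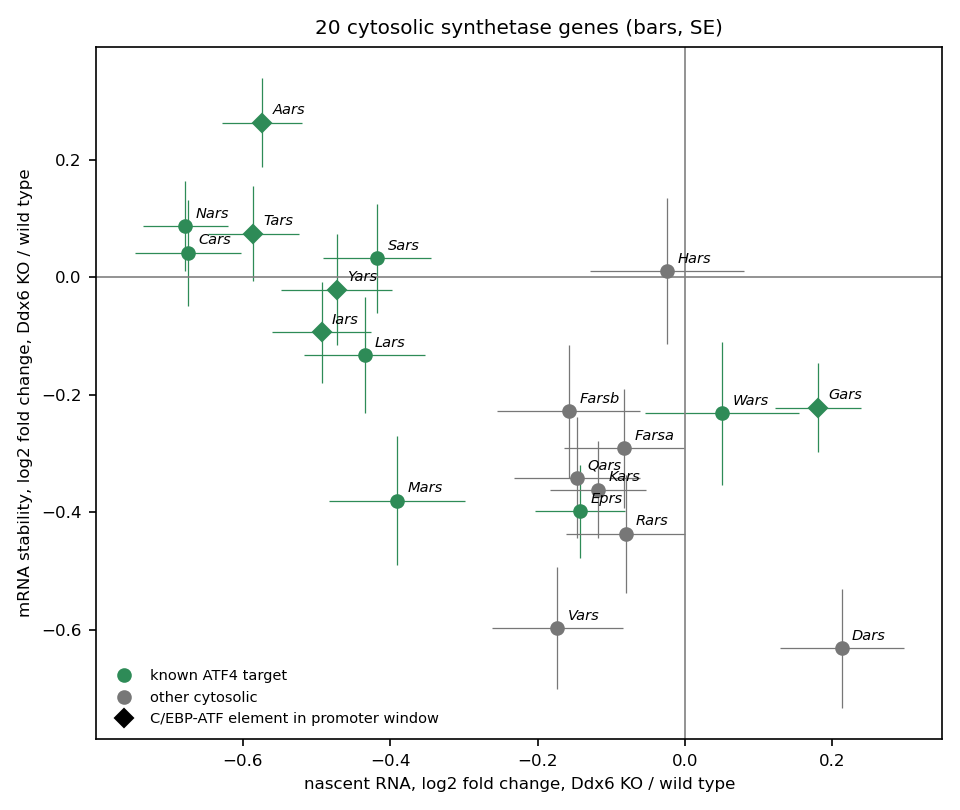
Log2 fold change of KO over wild type in nascent RNA (x axis) and mRNA stability (y axis) for the 20 cytosolic genes, with standard errors as bars. Green points are the 12 listed ATF4 targets, grey points the 8 others, and diamonds have the C/EBP-ATF element in a promoter window. The circles include Cars, Hars, Lars, Nars, Rars, Vars and Wars, which had no window to search. The 9 green points left of -0.38 on the x axis are the genes whose nascent RNA fell, and Dars and Vars lie lowest. Both axes share the 4sU libraries, so the slope of the cloud is not read as a relation.

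Gars, at chr6:55038007-55079500, was the listed ATF4 target that rose in nascent RNA. Its 4sU level was 222, 231 and 224 in wild type and 267, 250.2, 256 and 251 in KO, with no overlap (0.18 ± 0.058, adjusted p = 0.00955), and its total RNA level of 880, 886 and 859 overlapped 852, 836, 863 and 850 (-0.04 ± 0.049, adjusted p = 0.504, but 0.12 with adjusted p = 0.0437 under library totals without TMM scaling). It is the only member on chromosome 6. The other 734 tested genes of that chromosome had a median log2 fold change of 0.54 in nascent RNA and 0.43 in total RNA in the KO cultures, against -0.02 and -0.12 on the other chromosomes. The part of the chromosome in the values of Gars was not tested. In stability the medians were -0.13 on chromosome 6 and -0.09 elsewhere, and Gars fell by 0.22 (SE 0.076, adjusted p = 0.0423).

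Hars, the histidine enzyme, was the other cytosolic member that did not pass in total RNA. It had 162, 155 and 147 normalised CPM in wild type and 158, 145, 155 and 155 in KO, a log2 fold change of -0.01 ± 0.066 (adjusted p = 0.886). Wars was lower in total RNA by 0.18 (adjusted p = 0.0105), a call that held in 14 of 19 alternative settings. Farsb, the other subunit of the phenylalanine enzyme, fell by 0.39 (adjusted p = 9.96e-08), and for both genes neither nascent RNA nor stability passed.

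By complex and class, all 8 enzymes of the multisynthetase complex (Eprs, Iars, Lars, Mars, Qars, Rars, Kars and Dars) were lower in total RNA, with a median log2 fold change of -0.53, and 6 of the 8 in stability, with a median of -0.37, where 31.0% and 8.58% of all genes tested were called lower. Of the 12 cytosolic members outside the complex, 10 were lower in total RNA and 3 in stability, with medians of -0.39 and -0.01. This grouping overlaps the ATF4 list. The complex enzymes Dars, Kars, Qars and Rars are not on that list and were all lower in stability, and Eprs, Iars, Lars and Mars are on it. The part of each grouping in these values was not tested. With TMM within each assay 4 of the 8 and 1 of the 12 were lower in stability. The scaffold genes of the complex, Aimp1 (-0.45, adjusted p = 5.72e-07), Aimp2 (-0.51, adjusted p = 2.37e-06) and Eef1e1 (-0.32, adjusted p = 0.000752), were lower in total RNA as well, and Aimp1 also in stability (-0.48, adjusted p = 0.0145). Synthetases fall into class I and class II by the fold of the catalytic domain. All 10 cytosolic class I members and 8 of the 10 of class II were lower in total RNA, with medians of -0.55 and -0.39.

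The mitochondrial members went in both directions. In total RNA Hars2, Aars2 and Mars2 were higher in KO cultures, and Cars2, Ears2, Fars2, Iars2, Pars2, Sars2, Tars2, Vars2 and Yars2 were lower. Leaving out any 1 of 3 cultures ended the call of Mars2 (adjusted p up to 0.277), any 1 of 2 that of Sars2 (up to 0.0559) and any 1 of 6 that of Tars2 (up to 0.269). In nascent RNA Lars2, Pars2, Sars2, Tars2 and Yars2 fell and none rose. With Lars2 left aside, 4 of the 15 fell, and of all genes tested 21.0% were called lower and 20.6% higher. The nascent call of Sars2 held in 8 of 19 alternative settings and was lost on leaving out any 1 of 5 cultures (adjusted p up to 0.279), and that of Pars2 held in 13 of 19 and was lost without wild-type culture 2 or KO clone 2 culture 1 (0.112 each). In stability none passed in edgeR, DESeq2 or limma-voom, with 3 below an unadjusted p of 0.05 in edgeR. The cytosolic median log2 fold change minus the mitochondrial one was 0.05 in nascent RNA, -0.26 in total RNA and -0.28 in stability. Without Lars2 the mitochondrial medians were -0.18, -0.30 and 0.05, beside cytosolic medians of -0.17, -0.49 and -0.22. In nascent RNA the sign of the difference was mixed, at -0.25 and 0.06 for clone 1 and 0.08 and -0.01 for clone 2. It turned with the first run alone (-0.017), with clone 1 alone (-0.016) and without wild-type culture 1 (-0.023) or 2 (-0.011). The difference in total RNA was present in each KO culture, at -0.29 and -0.30 for clone 1 and -0.31 and -0.21 for clone 2, whereas that in stability was -0.03 and -0.32 for clone 1 and -0.30 and -0.30 for clone 2. These differences were not tested, since the members were chosen with results known. The mitochondrial members had fewer counts, and standard errors of up to 0.35 in stability.

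Hars2, the mitochondrial histidine enzyme, had the largest rise. Its total RNA level was 30.2, 27.4 and 26.4 normalised CPM in wild type and 40.1, 40.1, 37.7 and 35.1 in KO, apart in every culture (0.45 ± 0.10, adjusted p = 0.00015). Nascent RNA overlapped and did not pass (0.21, adjusted p = 0.199). It lies head to head with Hars, with which it shares 195 exon bases on the opposite strand. Aars2, the mitochondrial alanine enzyme, rose from 72.5, 69.4 and 70.5 to 81.1, 76.3, 90.2 and 89.7 (0.25 ± 0.077, adjusted p = 0.00513), while its cytosolic counterpart Aars fell. With clone 1 alone the rise of Aars2 did not pass (0.17, adjusted p = 0.11).

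Pars2, the mitochondrial proline enzyme, had the largest mitochondrial fall in total RNA. It went from 29.1, 30.8 and 25.5 to 16.7, 19.8, 17.9 and 12.3 (-0.76 ± 0.12, adjusted p = 6.24e-07), with 4sU levels of 52.4, 58.9 and 52.5 against 41.8, 44.3, 34.9 and 50.1 (-0.35, adjusted p = 0.0184). Yars2, the mitochondrial tyrosine enzyme, fell in nascent RNA from 194, 165 and 162 to 131, 122, 135 and 125 (-0.43 ± 0.077, adjusted p = 4.38e-06) and in total RNA from 46.2, 45.9 and 44.5 to 35.2, 34.8, 39.0 and 29.8 (-0.39, adjusted p = 0.000196). Tars2 fell in nascent RNA by 0.40 (adjusted p = 0.000239), and its call in total RNA (-0.16, adjusted p = 0.0486) held in 4 of 19 alternative settings. Of the others, Ears2 (-0.53), Cars2 (-0.39), Fars2 (-0.38), Vars2 (-0.36), Sars2 (-0.34) and Iars2 (-0.30) were lower in total RNA, and Nars2, Rars2 and Wars2, between -0.04 and 0.10, did not pass.

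**Figure D5:**
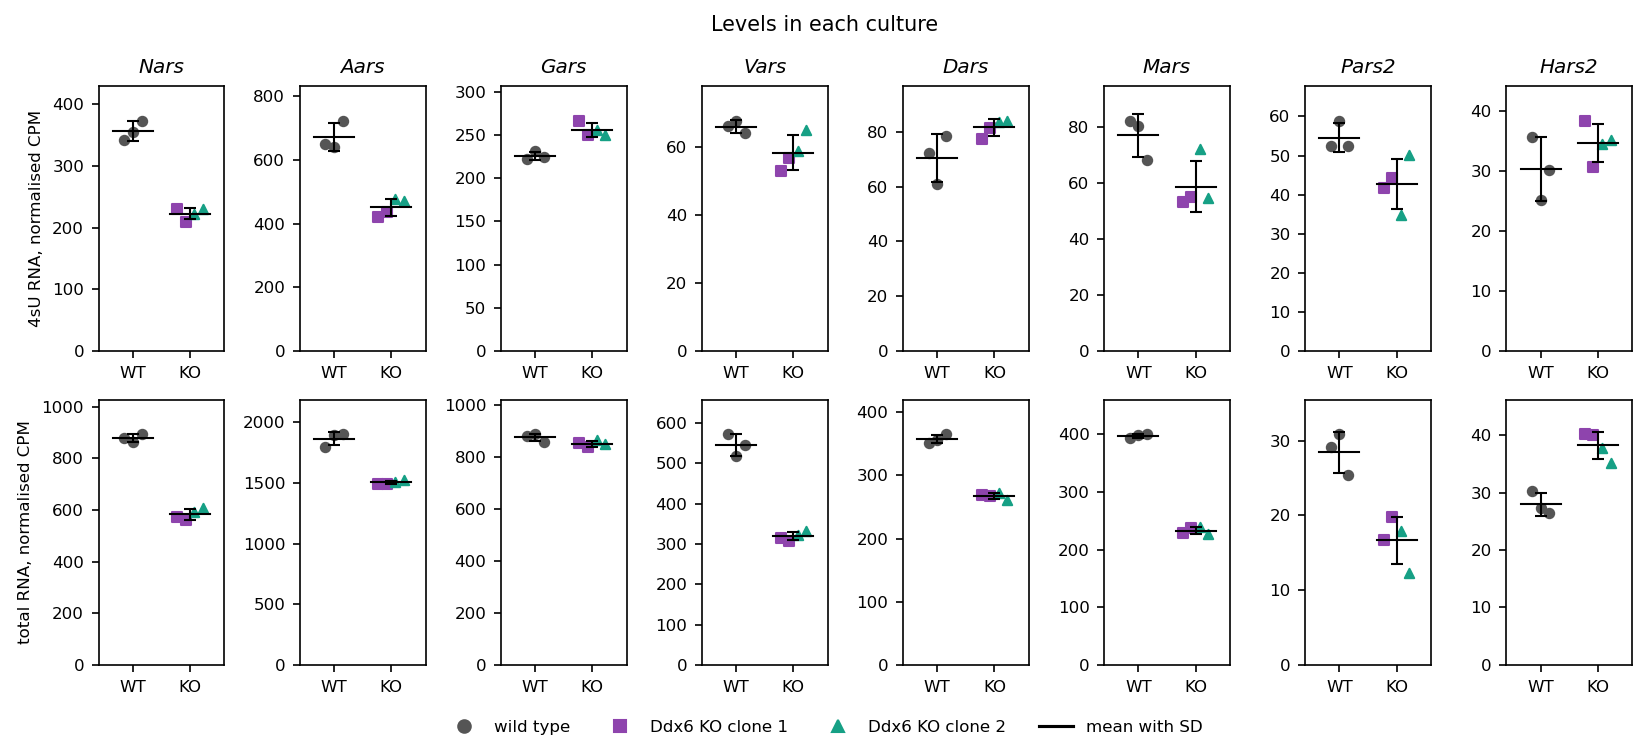
Normalised CPM (y axes, from 0) of 8 members in 4sU RNA (upper panels) and total RNA (lower panels). Points are cultures, with wild type on the left and KO on the right of each panel, and black lines are means with SD (n = 3 and n = 4). Nars and Aars are lower in KO in both assays, Vars and Dars are lower in total RNA with no overlap while their 4sU levels overlap, Gars is higher in 4sU RNA, and Hars2 is higher in total RNA.

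At Lars2 the 4sU level was 40395, 31703 and 32144 normalised CPM in wild type and 29915, 27679, 28026 and 29428 in KO. Without overlap, the log2 fold change was -0.27 ± 0.072 (adjusted p = 0.00359), but the change was -0.07 (adjusted p = 0.482) under library totals without TMM scaling. Its total RNA level was 33.2, 40.9 and 32.2 normalised CPM in wild type and 29.5, 35.7, 35.7 and 36.3 in KO and did not pass (-0.04 ± 0.11, adjusted p = 0.773). The stability term of the locus (0.23, adjusted p = 0.287) rests on the 4sU counts described above.

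The 2 KO clones could be set against each other for each member. No member passed in edgeR in nascent RNA, total RNA or stability, where 0.172%, 0.296% and 0.00689% of all genes tested did, and 2, 1 and 0 members had an unadjusted p below 0.05 (Mars2 and Sars2 in nascent RNA and Aars2 in total RNA). With 2 cultures per clone, the fitted differences between clones ran from -0.48 to 0.51 in nascent RNA and from -0.27 to 0.19 in total RNA.

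Other genes of the pathway were counted by list. Of 24 genes of the ATF4 and amino acid response, 20 fell in nascent RNA and none rose, with a median of -0.61, where 21.0% of all genes tested were called lower. Chac1, a glutathione-degrading enzyme (-2.52, adjusted p = 7.97e-30), and Pycr1, a proline synthesis enzyme (-1.72, adjusted p = 1.18e-17), fell most. In total RNA 13 of the 24 fell and 4 rose, beside 31.0% and 19.5% of all genes tested. Pycr1 was at -1.30 (adjusted p = 1.02e-20) and Chac1 at -1.09 (adjusted p = 7.88e-13). The cystine transporter Slc7a11 was at 1.10 (adjusted p = 0.00461) and Cebpb at 0.79 (adjusted p = 0.00377), both near the filter of 3 CPM. Slc7a11 had means of 1.83 normalised CPM in wild type, below that filter, and 3.99 in KO cultures, and Cebpb 3.88 and 6.65. In stability 11 rose, where 3.79% of all genes tested did, and 1 fell, the latter being Asns (-0.22, adjusted p = 0.0332), the asparagine synthetase that is no tRNA synthetase and lies on chromosome 6. Since stability is total minus nascent, these rises are not independent of the falls in nascent RNA. Chac1 (1.43, adjusted p = 1.5e-10) and Sesn2, a sensor in the amino acid response (1.03, adjusted p = 2.97e-11), had the smallest adjusted p among the rises in stability. Atf4, named after its values were seen, was lower in nascent RNA (-0.53, adjusted p = 6.3e-12).

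Of the 4 eIF2 alpha kinases, Eif2ak2 (0.60, adjusted p = 1.65e-07) and Eif2ak3 (0.54, adjusted p = 1.36e-07) were higher in total RNA, and the other two did not pass. Eif2ak3 lies on chromosome 6. All 5 cytosolic elongation factor genes fell in nascent and total RNA, led by Eef2, which moves the ribosome along the mRNA (-0.91 in nascent RNA, adjusted p = 8.98e-23, and -0.70 in total RNA, adjusted p = 1.53e-18). Of the 4 mitochondrial ones, 2 rose and 1 fell in nascent RNA, and 2 fell in total RNA. Of all genes tested, 20.6% rose and 21.0% fell in nascent RNA, and 19.5% rose and 31.0% fell in total RNA. Of 15 tested among 16 other tRNA-related genes, not all of which act in charging, 3 rose and 4 fell in total RNA, near those shares. The largest changes were in Trnt1, which adds the CCA end to tRNAs (0.90, adjusted p = 3.35e-18) and also lies on chromosome 6, and in Gatb, a subunit of the mitochondrial amidotransferase that makes glutaminyl-tRNA (-0.79, adjusted p = 4.74e-07). RNA levels alone were measured, not tRNA charging or protein.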

How the data were processed

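Raw counts of 4sU and total RNA from 7 cultures (14 libraries, 4sU libraries in 2 runs) were used as deposited. According to the methods and the processing notes of the submitters, the authors trimmed reads with Cutadapt 1.14, aligned them to mm10 with STAR 2.5.3a, kept unique reads and made the deposited counts with featureCounts 1.5.3 on the stranded setting over a GENCODE basic annotation without rRNA, so reads that fit several places or overlapping genes were lost. The first 4sU run was single-end (50 bases) and the later run paired-end, and both were summed per library. ERCC rows held 0 counts. Symbols came from GENCODE M21 by identifier (51274 of 51559 rows).

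Genes with at least 3 counts per 1000000 (CPM) in at least 3 libraries were fitted in edgeR 4.0.16 (R 4.3.3) with genotype, assay and their interaction over all 14 libraries, TMM scaling, the robust quasi-likelihood test and Benjamini-Hochberg adjustment over 14518 genes. TMM factors were 0.925 to 0.942 in wild type and 1.03 to 1.07 in KO libraries. Stability is the interaction (total minus nascent). Ratios per culture used log2(normalised CPM + 0.5), which understates low genes. The code was tested on simulated data. The members, the lists (ATF4 targets included) and the tests were chosen with earlier results of these data known. Members were described in full when they passed, up to 8 per contrast by p, with the 2 largest changes each way, Lars2 and Gars, and the others of the 36 more briefly; of each further list up to 2 per direction that passed were named, Ddx6 as the check of the labels, and Atf4 and the loci beside Lars2 after their values were seen.

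Alternatives were DESeq2 1.42.0, limma-voom 3.58.1, other scalings and filters, each run or clone alone, replicate blocks and each culture left out. According to the methods, labelled RNA was extracted and then split, and the titles number the 4sU and total library of a culture alike, so they pair. Deviations within a culture correlated weakly (mean r = 0.039 over 7 pairs). The cultures of a clone give the same r (0.024 for clone 1 and 0.046 for clone 2), since their deviations from the clone mean mirror each other. BLAST 2.17.0 searched for stretches of at least 50 bases with at least 95% identity that members share with transcripts of other genes, and 4 of 36 had such a stretch (Aars, Iars, Lars2 and Wars2).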

Additional observations from a re-analysis of the deposited data

Results flagged for a closer look

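In the 4 KO cultures, 1 culture stood far from the other 3 in 9 of the 108 sets of values examined (36 genes in 4sU RNA, total RNA and their log2 ratio), where chance alone gives about 5.4. The measure is the gap to the nearest culture divided by the whole range.

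KO clone 2 culture 1 accounted for 4 of the 9. In 4sU RNA it was highest for Eprs (log2 level 7.67 against 7.57 to 7.58, ratio 0.942) and for Mars (6.19 against 5.75 to 5.80, ratio 0.895). It was also highest for Kars in total RNA (8.99 against 8.93 to 8.94, ratio 0.843) and lowest for the total to 4sU ratio of Mars (1.72 against 2.05 to 2.10, ratio 0.868).

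KO clone 1 culture 1 was lowest for the total to 4sU ratio of Nars (1.31 against 1.40 to 1.41, ratio 0.852), lowest for Lars2 in total RNA (4.91 against 5.18 to 5.21, ratio 0.922) and highest for Mars2 in total RNA (5.48 against 5.30 to 5.33, ratio 0.845). KO clone 1 culture 2 was lowest for the total to 4sU ratio of Yars (1.19 against 1.41 to 1.42, ratio 0.932). KO clone 2 culture 2 was highest for the total to 4sU ratio of Sars2 (1.44 against 0.52 to 0.65, ratio 0.868), with the lowest 4sU level of that gene at 11.01 normalised CPM.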

How the results depend on the processing

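The calls in nascent and total RNA were steadier than those in stability: of the 16, 30 and 10 members that passed, 9 of 16 and 23 of 30 passed in all 19 alternatives and 3 of 10 (Dars, Vars and Eprs) in all 20, and no passed change reversed. With each of the 7 cultures left out in turn, 14 to 17, 27 to 30 and 6 to 8 members passed. In stability 6 passed with TMM within each assay, 6 with no filter beyond 1 count and 6 with clone 1 alone, 5 with clone 2 alone and 5 with the re-sequencing run alone, and 6 without wild-type culture 3. With an absolute log2 fold change above 1 required, 0 passed in each measure. Blocks by replicate number gave 16, 30 and 9 members and the block by culture, which pairs the libraries of an extract, gave 10 in stability; replicate numbers mark no shared origin across lines. Without TMM, 6 members rose and 9 fell in nascent RNA, in place of 2 and 14.

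The cytosolic minus mitochondrial median was -0.17 in nascent RNA with the re-sequencing run alone and -0.19 in total RNA without Lars2. In total RNA the change of Lars2, which did not pass, was 0.0496 with TMM within each assay, 0.11 with library totals alone, 0.0586 without the filter, 0.0383 with clone 2 alone and -0.11 to 0.0712 with cultures left out, and that of Gars was 0.0508, 0.12 and 0.0595 in the first 3 of these. Without length, the median percentiles of wild-type levels were 97.6 (cytosolic) and 58.5 (mitochondrial). Lars2 took 1.84% of the first run and 4.93% of the re-sequencing run on average. The cause of these shifts was not tested. Leaving Lars2 out of the library totals, an alternative chosen after seeing the data, kept each count within 1.5 times. Depth limits the mitochondrial members most, with Wars2 at 3.82 to 8.67 normalised CPM.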
